A study of Mus musculus with 6 samples.

Results

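The T cell receptor complex and its proximal signalling genes were examined in CD4 single-positive thymocytes of the mouse that lacked or carried Bach2. The set was defined by name. It listed 45 gene symbols of receptor chains, kinases, adaptors and negative regulators, and a gene was measured if a probe set of the array was annotated with that symbol alone. Of the 45 symbols, 43 were measured, among 19938 genes tested. Gads had no probe set under that symbol and is a synonym of Grap2 in the RefSeq gene table, which was measured; Lck was not analysed here.

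There were 3 arrays of wildtype cells, which carried Ly5.1, and 3 arrays of Bach2 knockout cells, which did not. Both came from male C57BL/6 mixed chimeras. Lethally irradiated Rag1 knockout males, which cannot form T cells of their own, had been given an equal mix of both marrows (donors and recipients 8 weeks old), and thymocytes were sorted 2 months after the transfer. Each sample came from a separate mouse, and which part of Bach2 was deleted is not stated in the labels. Because Ly5.1, an allele of Ptprc, went with wildtype in every sample, an effect of that chromosomal segment and an effect of Bach2 cannot be told apart. In gene order, 143 tested genes lay between Cd247 and Ptprc and 80 between Sit1 and Bach2.

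The receptor that recognises peptide on major histocompatibility molecules has no enzymatic activity. It signals through the CD3 chains and the zeta chain (Cd247), whose cytoplasmic tyrosines are phosphorylated by Lck and then bind the kinase Zap70. Zap70 phosphorylates the adaptors Lat and Lcp2 (SLP-76), which gather phospholipase C, Vav1 and Ras activators, while phosphatases, inhibitory adaptors and diacylglycerol kinases hold the signal in check. In the thymus the strength of this signal decides between positive selection, deletion and diversion to the regulatory T cell lineage. Bach2 itself is a DNA-binding repressor that restrains effector programmes in T cells.

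Of the 43 measured genes, 1 rose and 0 fell in knockout cells. The gene that rose was Trat1, the transmembrane adaptor TRIM of the receptor complex, which was 1.76-fold higher (limma, adjusted p = 0.00461). Over all genes tested, 0.567% passed the same test, 0.351% as higher and 0.216% as lower. Without the adjustment, 6 members had a p under 0.05, which is 14.0% of the set against 6.91% of all genes: Trat1, Themis, Malt1 and Sla were higher (3.04% of all genes) and Txk and Ubash3b lower (3.87%). Of the 43 members 1, Syk, was dimmer than the median of all values. With such dim genes left out of the fit, 10614 genes were tested, 1.29% passed with adjustment and 9.3% had an unadjusted p under 0.05, against 2 and 6 of the 42 members kept. Groups were fully separated for 11 members, 25.6% against 11.7% of all genes, with knockout above in 8 and below in 3. The members were chosen with earlier results of these data known, so these shares describe the set and are not a test of it.

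The median difference, knockout minus wildtype on the log2 scale, was 0.01 over the members and -0.01 over all genes, and the median size of the difference was 0.07 against 0.08. For 39 members the 95% interval of the difference (limma, not adjusted for the number of genes) lay within 0.5 on either side of 0, a 1.41-fold change, which is 90.7% of the set against 88.0% of all genes. The 4 others were Trat1, Themis, Txk and Ubash3b. In these bulk samples, fewer cells of a type and less RNA per cell cannot be told apart.

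**Figure D1:**
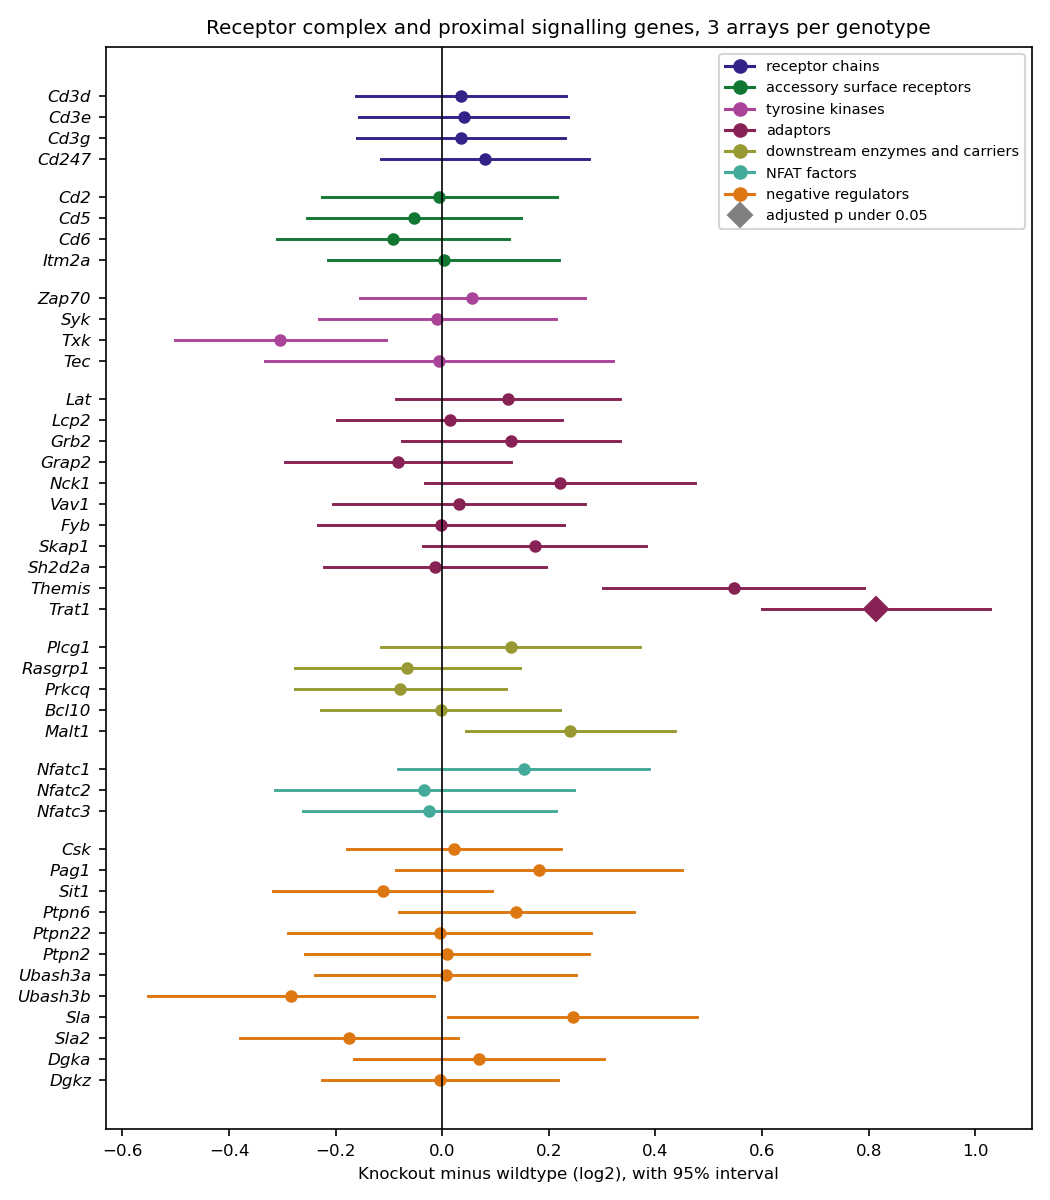
Knockout minus wildtype difference of each of the 43 measured genes (x axis, log2; points: limma difference, bars: 95% interval, 3 arrays per genotype), grouped by role. Trat1, at 0.81, is the diamond that passed the test, Themis lies next at 0.55, and the receptor chains lie between 0.03 and 0.08.

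The labels were checked on Bach2, which read 7.89, 8.20 and 8.05 on the wildtype arrays against 6.50, 6.42 and 6.52 on the knockout arrays (log2 signal, as for all levels here). Arrays correlated at 0.981 to 0.991 with each other across all probe sets. Cd4, the co-receptor that defines the sorted cells, was at 10.33 to 10.43 in wildtype and 10.34 to 10.35 in knockout arrays. Of the 7 measured CD4 single-positive markers 0 passed by limma. At an unadjusted p under 0.05 there were 3 (42.9% against 6.91% of all genes). Il7r was higher by 0.49, and Gata3 and Klf2 differed by -0.26 and -0.23. Groups did not overlap for 4 of the 7 (57.1% against 11.7% of all genes), with knockout above in 1 and below in 3. In the same comparison 4 of 8 regulatory T cell markers fell and 0 rose, with the list's mean at 7.53, 8.33 and 8.32 on the wildtype arrays against 6.73, 6.64 and 6.78 on the knockout arrays. At an unadjusted p under 0.05 there were 7 of the 8, all lower (87.5% against 6.91% of all genes). Foxp3 had the largest difference, at -2.43. Of 11 double-positive thymocyte markers 0 passed by limma. At an unadjusted p under 0.05 there were 4, all higher (36.4% against 6.91% of all genes). They were Rag1 (1.27), Arpp21 (0.95), Chst2 (0.53) and Ptcra (0.33), and Arpp21 and Chst2 did not overlap between genotypes. Of the 11 differences 9 were positive and 2 negative. The list means were 6.03, 6.22 and 6.28 on the wildtype arrays against 6.18, 6.53 and 7.03 on the knockout arrays, which overlap. Of 7 myeloid markers Lyz2 rose, by 1.39, while Itgam was at -0.33 without overlap. These were the only ones at an unadjusted p under 0.05 (28.6% against 6.91% of all genes). In this list 4 of the 7 differences were positive, with list means of 4.56 to 4.73 in wildtype and 4.70 to 5.07 in knockout arrays. The 6 B cell markers (3.90 to 4.21 and 4.13 to 4.21) and the 7 markers of natural killer and innate-like T cells (5.04 to 5.15 and 4.79 to 4.92) had 0 members past the test, with 0 and 2 at an unadjusted p under 0.05. Those 2 (28.6% of that list against 6.91% of all genes) were Il2rb (-0.76) and Cd160 (-0.44), while Ncr1 and Klrb1c differed by 0.03 and -0.06. The part of these cells in the values below was not tested.

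**Figure D2:**
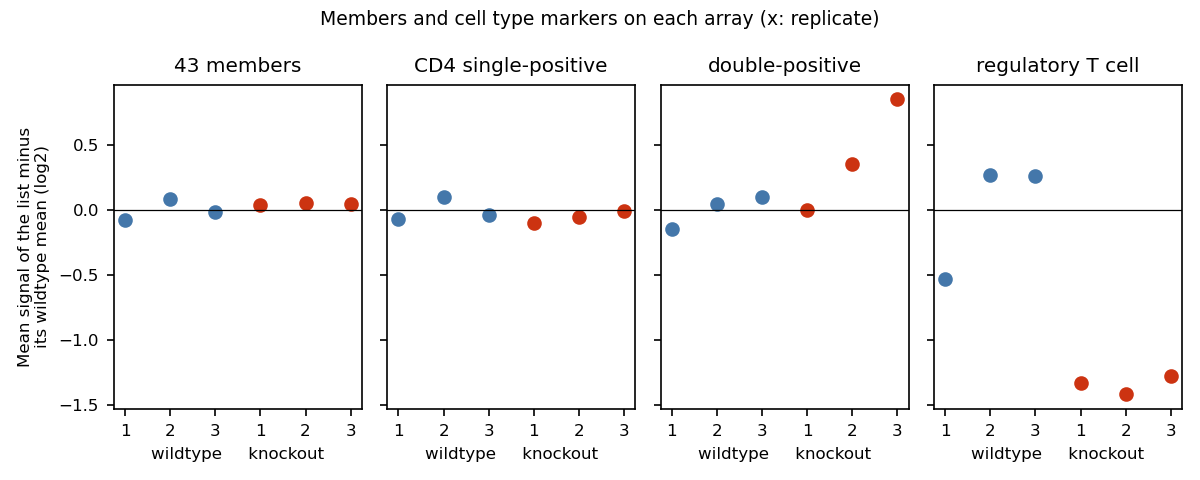
Mean log2 signal of the 43 receptor and signalling genes and of 3 marker lists on each array, as the difference from that list's wildtype mean (y axis), by replicate (x axis; blue wildtype, red knockout). The means of the receptor genes and of the CD4 single-positive markers stay near 0 on all 6 arrays, although of the 7 single CD4 markers 1 is higher and 6 are lower. The regulatory T cell list is lower on every knockout array, and the double-positive list is highest on knockout replicate 3.

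The chains of the receptor complex were measured at nearly equal levels in both genotypes. Cd3d, which pairs with Cd3e, read 11.43, 11.41 and 11.35 on the wildtype arrays against 11.40, 11.42 and 11.47 on the knockout arrays, in the order of replicates 1 to 3 as for all values by array here. For Cd3e the values were 11.39, 11.45 and 11.40 against 11.48, 11.41 and 11.46. Cd3g, which forms the second dimer with Cd3e, was at 11.32, 11.36 and 11.34 against 11.40, 11.33 and 11.38. The groups overlapped for these 3 genes, no array stood apart, and the differences were 0.03, 0.04 and 0.03, each with a limma standard error of 0.09.

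These 3 genes are neighbours on chromosome 9 (GRCm38.p6, RefSeq). Cd3g and Cd3d start 1355 bases apart on opposite strands, at chr9:44980382-44980681 (minus) and chr9:44981536-44981835 (plus) for the windows around their starts, and the Cd3e window lies at chr9:45009562-45009861 (minus). Cd247, the zeta chain that carries most of the receptor's signalling motifs and lies elsewhere, read 9.57, 9.55 and 9.61 on the wildtype arrays against 9.69, 9.63 and 9.65 on the knockout arrays. All 3 knockout values lay above the wildtype values, by 0.02 at the closest, and the difference of 0.08 did not pass (95% interval -0.12 to 0.27; adjusted p = 0.979 by limma). Over the 4 chains the intervals ran from -0.16 to 0.27, so that changes beyond 1.41-fold lay outside all of them.

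Of the accessory surface receptors 0 of 4 passed by limma, and 0 had an unadjusted p under 0.05. Cd5, a scavenger receptor that dampens receptor signalling and whose level follows signal strength in thymocytes, read 10.74, 10.85 and 10.82 on the wildtype arrays against 10.79, 10.75 and 10.71 on the knockout arrays, a difference of -0.05. Its relative Cd6 was at 9.33, 9.49 and 9.45 against 9.39, 9.37 and 9.22, where knockout replicate 3 was the lowest of the 6 and the groups overlapped (difference -0.09 ± 0.10, limma standard error). Cd2, an adhesion receptor, differed by -0.01, and Itm2a, a membrane protein induced during positive selection, by 0.00. The intervals of all 4 lay between -0.31 and 0.22.

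Among the tyrosine kinases, Zap70 read 8.99, 8.995 and 9.08 on the wildtype arrays against 9.13, 9.14 and 8.97 on the knockout arrays. Knockout replicates 1 and 2 lay above every wildtype value and replicate 3 below them all, and the difference was 0.06 ± 0.09 (adjusted p = 0.992). Its relative Syk, which is used mainly by B cells and early thymocytes, was at 4.36 to 4.59 on all arrays, below the median of all values, and differed by -0.01.

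The Tec family kinases, which activate phospholipase C gamma, were measured at 2 genes, Txk and Tec. Txk, also called Rlk, read 8.50, 8.57 and 8.53 on the wildtype arrays against 8.27, 8.18 and 8.23 on the knockout arrays. The groups did not overlap and were 0.23 apart at the closest. Txk was 1.23-fold lower, and the difference of -0.30 ± 0.09 did not pass over all genes (unadjusted p = 0.00644, adjusted p = 0.327 by limma); in the 15 alternative analyses it was between -0.33 and -0.28, with an adjusted p of 0.136 to 0.903. Tec was at 4.78 to 5.31 on all arrays, close to the median of all values (4.94). It had the widest spread within a genotype of all members, with an SD of 0.25 in wildtype, and differed by -0.01. Whether Txk and Tec differ from each other was not tested.

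The adaptors held the member that rose. Trat1 read 7.51, 7.63 and 7.44 on the wildtype arrays against 8.41, 8.32 and 8.29 on the knockout arrays. The values of each genotype lay within 0.19 and 0.12 of each other, and 0.66 separated the lowest knockout from the highest wildtype array. The wildtype mean was 7.53 ± 0.10 and the knockout mean 8.34 ± 0.06 (SD, n = 3 each). Trat1 rose by 0.81 ± 0.10 (limma standard error; 95% interval 0.60 to 1.03; adjusted p = 0.00461). By size it was number 37 of the 70 genes that rose, and by p number 30 of all genes tested.

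The rise of Trat1 was seen with every array left out in turn, at 0.77 to 0.87 with an adjusted p of 0.00676 to 0.0349 by limma. With all 35556 probe sets in the fit, named or not, the difference was the same and the adjusted p was 0.0551.

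Themis, an adaptor that binds Grb2 and tunes receptor signals during positive selection, read 9.03, 9.31 and 9.07 on the wildtype arrays against 9.56, 9.75 and 9.74 on the knockout arrays. The groups were 0.25 apart at the closest. Its 1.46-fold higher signal (0.55 ± 0.11; 95% interval 0.30 to 0.79) did not pass over all genes (unadjusted p = 0.000553, adjusted p = 0.0770 by limma). It passed in 4 of 15 alternatives: with a prior that followed expression level (adjusted p = 0.00897), with array weights (0.0190), without dim genes (0.0447) and without wildtype replicate 2 (0.0381). Without knockout replicate 3 it was higher by 0.52 (adjusted p = 0.316).

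**Figure D3:**
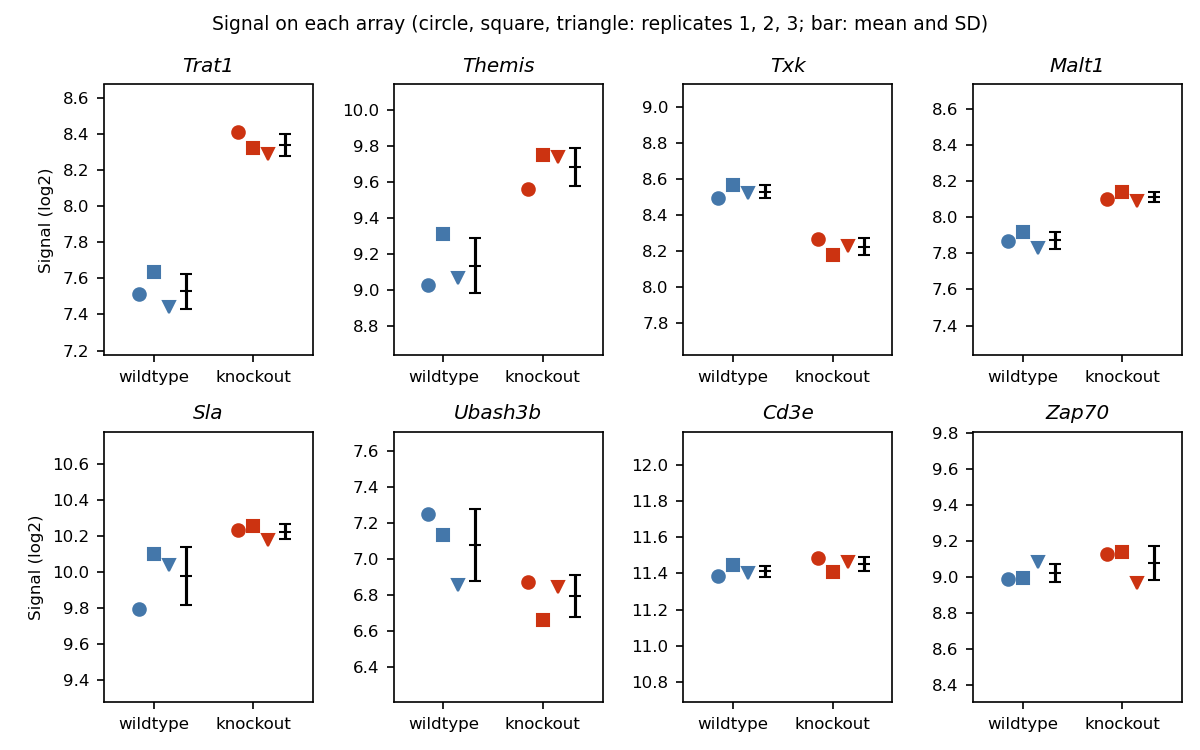
Log2 signal of 8 members on each array (y axis; every panel spans 1.5 log2 units, so sizes can be compared between panels; circle, square and triangle: replicates 1, 2 and 3; black bar: mean and SD of the 3 arrays). Trat1, Themis, Txk, Malt1 and Sla have separate groups, Ubash3b, Cd3e and Zap70 overlap, and Trat1 shows the widest gap.

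The DNA ahead of the start sites of Trat1, Themis and Txk, the 3 members with the smallest p, is shown because Bach2 represses through sites of the MARE and AP-1 type. Each line gives the 250 bases before a RefSeq start (GRCm38.p6), 5′ to 3′ on the gene's strand: Trat1 at chr16:48772063-48772312 (minus), Themis at chr10:28668110-28668359 (plus; a second start lies 35 bases further on) and Txk at chr5:72752778-72753027 (minus; the first of 2 starts). Capitals mark the only match to the 8 motifs searched, a TCF motif in Trat1.
Trat1: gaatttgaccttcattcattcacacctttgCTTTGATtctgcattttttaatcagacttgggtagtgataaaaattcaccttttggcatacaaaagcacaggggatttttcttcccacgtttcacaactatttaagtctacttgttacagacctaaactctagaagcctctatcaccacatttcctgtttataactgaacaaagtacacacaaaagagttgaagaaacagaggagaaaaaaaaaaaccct
Themis: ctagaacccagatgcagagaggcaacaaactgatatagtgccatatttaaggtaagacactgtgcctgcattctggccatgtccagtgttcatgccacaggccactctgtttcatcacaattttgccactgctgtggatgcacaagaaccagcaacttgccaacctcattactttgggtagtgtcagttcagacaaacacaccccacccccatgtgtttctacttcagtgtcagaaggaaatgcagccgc
Txk: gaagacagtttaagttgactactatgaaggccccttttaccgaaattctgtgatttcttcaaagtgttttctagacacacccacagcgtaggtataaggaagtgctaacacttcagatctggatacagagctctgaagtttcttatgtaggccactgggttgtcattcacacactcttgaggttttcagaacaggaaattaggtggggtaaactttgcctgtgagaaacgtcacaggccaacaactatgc

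Motifs were searched on both strands in these 250 bases for the 34 measured members listed in the promoter table, which have 50 windows. The Maf recognition element, the longer site that Bach2 binds with small Maf proteins, was in 0 of the 50 windows, against 0.134% of all 32851 windows. The AP-1 site TGAGTCA, which it contains, was in 0 against 4.46%. The TCF motif CTTTGAT, bound by the T cell factors Tcf7 and Lef1, was in 2 windows (4.0% against 3.21% of all), those of Trat1, where it starts 220 bases before the start site, and Cd3d. The RUNX motif TGTGGTT was in 2 windows (4.0% against 4.40%), one of them 21 bases before the second Txk start. The GATA motif AGATAA was in 6 windows (12.0% against 9.99%). The E-box CAGCTG was in 4 windows (8.0% against 13.0%). The NFAT motif GGAAAA was in 8 windows (16.0% against 20.4%). The ETS motif CCGGAAGT was in 0 against 2.88%. These are matches of letters in short windows, and distal elements were not examined. The Maf recognition element is so rare over all windows that 0 of 50 was likely in advance. The counts of 0 for it and for the AP-1 site therefore give no answer on binding by Bach2.

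None of the scaffold genes Lat, Lcp2, Grap2 and Grb2 passed by limma, and 0 of these 4 had an unadjusted p under 0.05. Lat, the membrane adaptor phosphorylated by Zap70, read 11.14, 11.33 and 11.27 on the wildtype arrays against 11.38, 11.40 and 11.32 on the knockout arrays, which overlap (difference 0.12 ± 0.09; adjusted p = 0.937). Without wildtype replicate 1 that difference was 0.07. Lcp2 was at 10.35, 10.42 and 10.22 against 10.29, 10.37 and 10.36, a difference of 0.01 ± 0.09 that turned to -0.04 without wildtype replicate 3. Grap2 (Gads), which joins Lat to Lcp2, differed by -0.08. Grb2, which brings the Ras activator Sos1 to Lat, was higher on each knockout array, by 0.06 at the closest, with a difference of 0.13 that did not pass.

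Nck1, which links the complex to the actin cytoskeleton, read 6.60, 6.85 and 6.86 on the wildtype arrays against 6.96, 6.86 and 7.15 on the knockout arrays. Its groups were separated by 0.01, with knockout replicate 3 the highest (difference 0.22 ± 0.11; adjusted p = 0.812). Leaving out either wildtype replicate 1 or knockout replicate 3 gave 0.14 for Nck1. Skap1, a partner of Fyb in integrin activation, was at 9.17, 9.26 and 9.12 against 9.44, 9.29 and 9.35, again without overlap (0.17 ± 0.09; adjusted p = 0.841). Fyb itself (0.00), the exchange factor Vav1 (0.03) and Sh2d2a (-0.01), an adaptor that binds Lck, lay near 0. In all, the knockout values were above the wildtype values for 5 of 11 adaptors and below for 0, where 5.13% and 6.57% of all genes did the same.

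Of the enzymes and carriers downstream of the scaffold 0 of 5 passed by limma and 1 had an unadjusted p under 0.05 (20% against 6.91% of all genes). That was Malt1, the protease of the complex that carries receptor signals to NF-kappaB, at 7.87, 7.92 and 7.83 on the wildtype arrays against 8.10, 8.14 and 8.09 on the knockout arrays. The groups did not overlap, and the 1.18-fold higher signal (0.24 ± 0.09) had an unadjusted p of 0.0215 and an adjusted p of 0.548. Bcl10, its partner in the same complex, differed by 0.00. Prkcq, the protein kinase C theta that starts this branch, differed by -0.08, with every knockout array below the wildtype arrays by 0.02 at the closest. Plcg1 (0.13), the phospholipase that makes diacylglycerol and inositol trisphosphate, and Rasgrp1 (-0.07), the diacylglycerol-dependent Ras activator needed for positive selection, overlapped between genotypes.

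The NFAT factors, which enter the nucleus when calcineurin removes their phosphates, had 0 of 3 members past the test by limma and 0 at an unadjusted p under 0.05. Nfatc1, the member with the largest difference, read 7.92, 8.21 and 8.08 on the wildtype arrays against 8.13, 8.24 and 8.29 on the knockout arrays, with a difference of 0.15 ± 0.11 (adjusted p = 0.923). Wildtype replicate 1 was the lowest of the 6 arrays and the groups overlapped; without it the difference was 0.08. Nfatc2 and Nfatc3 differed by -0.03 and -0.02.

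Of the 12 negative regulators 0 passed by limma, and the median difference was 0.01. At an unadjusted p under 0.05, 1 was higher and 1 lower (together 16.7% against 6.91% of all genes). Sla, the adaptor SLAP that promotes degradation of the receptor in thymocytes, read 9.80, 10.10 and 10.04 on the wildtype arrays against 10.24, 10.26 and 10.18 on the knockout arrays. All knockout values lay above the wildtype values, with wildtype replicate 1 the lowest, and the difference was 0.24 ± 0.11 (unadjusted p = 0.0421, adjusted p = 0.686). Without wildtype replicate 1 the difference of Sla was 0.15. Its relative Sla2 was at 8.95, 8.79 and 8.85 against 8.70, 8.67 and 8.69, with every knockout array below (-0.17 ± 0.09; adjusted p = 0.825).

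Ubash3b, the phosphatase Sts-1 that acts on Zap70, read 7.25, 7.13 and 6.86 on the wildtype arrays against 6.88, 6.66 and 6.85 on the knockout arrays. Wildtype replicate 3 lay among the knockout values, and the difference was -0.28 ± 0.12 (unadjusted p = 0.0406, adjusted p = 0.675). Its relative Ubash3a differed by 0.01. Of the proteins that act on the Src family kinases, Csk, which phosphorylates their inhibitory tyrosine, differed by 0.02 and Ptpn22, a phosphatase that works with Csk, by 0.00. Pag1, the membrane adaptor that holds Csk, read 7.25, 7.64 and 7.62 on the wildtype arrays against 7.63, 7.76 and 7.67 on the knockout arrays, with wildtype replicate 1 the lowest of the 6. Its difference was 0.18 ± 0.12, and 0.06 without that replicate.

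Ptpn6, the phosphatase SHP-1, read 9.35, 9.60 and 9.46 on the wildtype arrays against 9.55, 9.65 and 9.63 on the knockout arrays, which overlap (0.14 ± 0.10; adjusted p = 0.928). Without wildtype replicate 1 the difference of Ptpn6 was 0.08. Sit1, an inhibitory transmembrane adaptor, differed by -0.11 and Ptpn2 by 0.01. The diacylglycerol kinases, which end the signal to Rasgrp1, differed by 0.07 (Dgka) and 0.00 (Dgkz). For Ptpn2 and Dgkz, the 2 members with a further probe set, that second probe set was dimmer and differed by -0.01 and -0.09.

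The members also differed between arrays of the same genotype. Within wildtype, replicate 1 gave the lowest value for 29 of 43 members (67.4%), where it did so for 30.0% of all genes and 38.5% of the brighter genes. Replicate 2 gave the highest value for 32 members (74.4%, against 35.1% and 52.9%). The upper quartile of all probe sets was 6.90, 7.06 and 6.91 on the wildtype arrays against 6.96, 6.99 and 6.99 on the knockout arrays. After a second quantile normalization, replicate 2 was highest for 17 members and replicate 1 lowest for 26. These counts under that alternative were added after the data were seen.

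Among the knockout arrays no such order was seen: the highest value fell on replicates 1, 2 and 3 for 16, 16 and 11 members. The SD was larger in wildtype than in knockout for 28 members (65.1%, against 65.0% of all genes), with a median of 0.10 in wildtype and 0.06 in knockout. The mean over all members was 8.97, 9.13 and 9.03 on the wildtype arrays against 9.08, 9.10 and 9.09 on the knockout arrays, so the knockout arrays lay inside the range of the wildtype arrays.

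**Figure D4:**
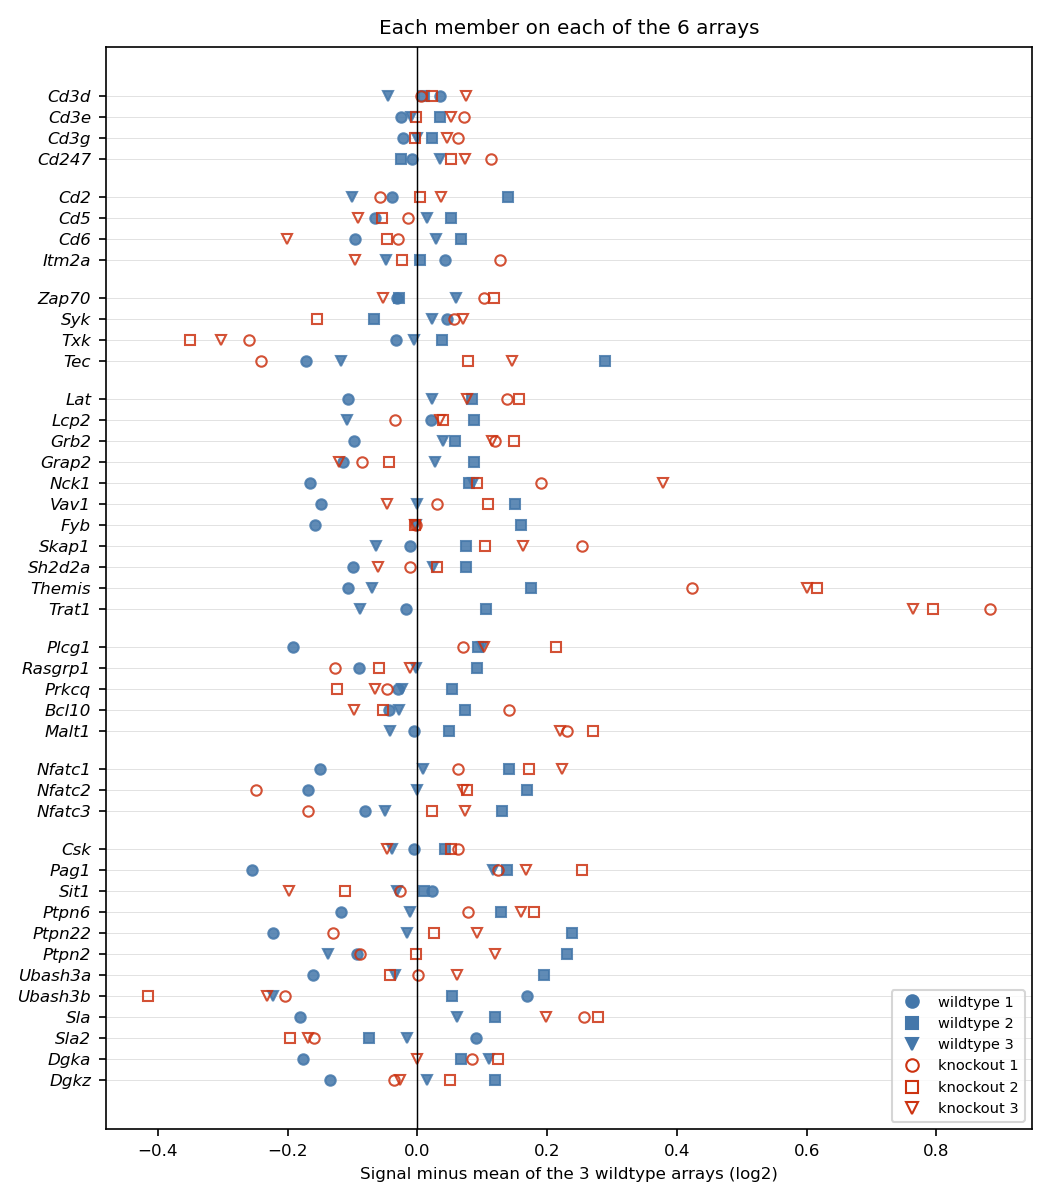
Each of the 43 measured genes on each of the 6 arrays, as log2 signal minus the mean of the 3 wildtype arrays (x axis; filled blue: wildtype, open red: knockout; circle, square and triangle: replicates 1, 2 and 3). Wildtype replicate 1 lies to the left and replicate 2 to the right of most wildtype means, and only Trat1 and Themis have all knockout points above 0.4.

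Beyond the set, 97 further symbols of the pathway were listed by branch, and 84 were measured; 0 rose and 2 fell, with 3 higher and 7 lower at an unadjusted p under 0.05 (11.9% against 6.91% of all genes). Their median difference was 0.01. Rasgrp4, a Ras activator known mainly from mast cells, read 7.14, 7.11 and 6.81 on the wildtype arrays against 6.22, 6.15 and 6.24 on the knockout arrays, and fell by 0.82 ± 0.11 (1.76-fold; adjusted p = 0.00920 by limma). Pik3ip1, an inhibitor of phosphoinositide 3-kinase in T cells, was at 7.84, 7.90 and 7.84 against 7.19, 7.20 and 7.14, and fell by 0.69 ± 0.09 (1.61-fold; adjusted p = 0.00702).

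Neither gene overlapped between genotypes. With all probe sets in the fit the adjusted p was 0.129 for Rasgrp4 and 0.0542 for Pik3ip1, and without knockout replicate 2 it was 0.0585 for Rasgrp4. The other 16 of 17 measured genes of the Ras and MAP kinase branch and 10 of 11 of the phosphoinositide 3-kinase branch did not pass. Foxo1, the transcription factor that this kinase branch keeps out of the nucleus, read 8.70, 8.77 and 8.60 on the wildtype arrays against 8.34, 8.25 and 8.29 on the knockout arrays, without overlap (-0.40 ± 0.09; adjusted p = 0.150).

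In the calcium and calcineurin branch 0 of 17 passed by limma, with 3 at an unadjusted p under 0.05 (17.6% against 6.91% of all genes). The catalytic calcineurin subunit Ppp3ca read 7.09, 7.11 and 6.90 on the wildtype arrays against 6.75, 6.71 and 6.67 on the knockout arrays, without overlap (-0.33 ± 0.10; adjusted p = 0.343). In the NF-kappaB branch 0 of 11 passed and 0 had an unadjusted p under 0.05, with differences from -0.19 to 0.22.

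The other proximal genes, 28 measured, also held 0 past the test by limma, with 4 at an unadjusted p under 0.05 (14.3% against 6.91% of all genes). Among these, the ubiquitin ligase Cblb, which restrains signalling without costimulation, read 9.66, 9.87 and 9.80 on the wildtype arrays against 9.41, 9.57 and 9.51 on the knockout arrays (-0.28 ± 0.10; adjusted p = 0.518). The phosphatase Ptpn7 was at 8.45, 8.59 and 8.44 against 8.75, 8.75 and 8.74 (0.26 ± 0.09; adjusted p = 0.524). The costimulatory receptor Cd28 was at 10.26, 10.47 and 10.30 against 10.52, 10.59 and 10.70 (0.25 ± 0.10; adjusted p = 0.615). These 3 did not overlap between genotypes. Fyn, the second Src family kinase of T cells, was at 9.57, 9.92 and 9.73 against 9.76, 9.77 and 9.73, a difference of 0.01 ± 0.11 whose sign turned after a second quantile normalization.

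**Figure D5:**
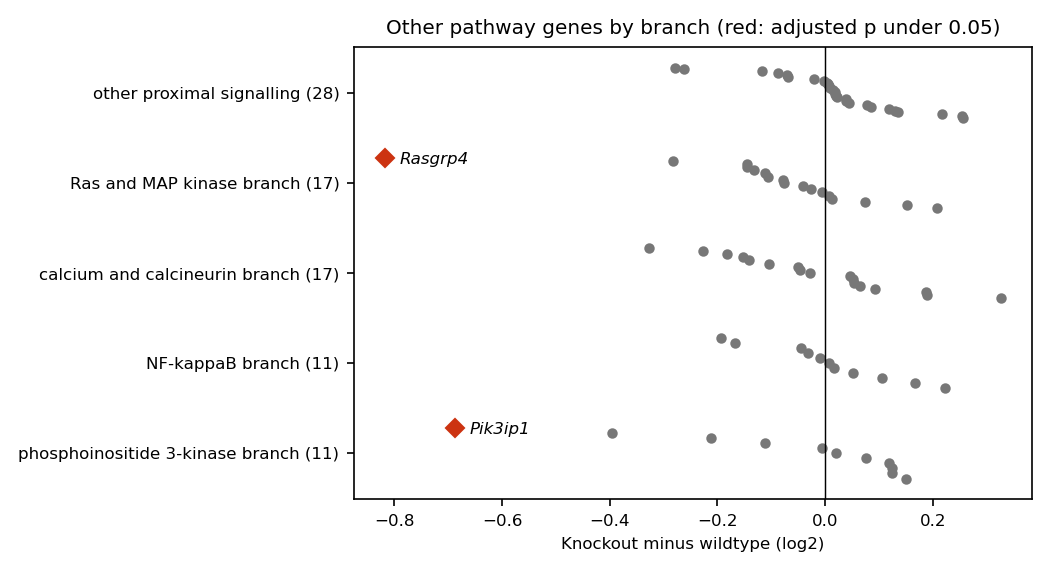
Knockout minus wildtype difference (x axis, log2) of the 84 measured genes of the pathway outside the receptor set, by branch, with the number measured in parentheses; points are genes, spread vertically in order of their value. Rasgrp4 at -0.82 and Pik3ip1 at -0.69, in red, passed the test, and the grey points lie between -0.40 and 0.33.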

How the data were processed

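The authors deposited 1 log2 value per probe set and array, with RMA (robust multi-array average) and Partek named without versions in the submitters' processing notes; that the scale is log2 was read from the values, and no genome build is named for the array values. RMA usually includes quantile normalization, which hides a change common to most genes; the deposited arrays still differed slightly in their upper quartile. Per the labels' protocols, 5.5 µg of amplified cDNA was labelled per array. Of 35556 probe sets, 21789 had 1 gene symbol in the platform's annotation, 1621 several and 12146 none listed; each gene was represented by its brightest probe set, which gave 19938 genes. Arrays give no read depth, and their number, 3 per genotype, limits the precision.

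Knockout minus wildtype differences came from a limma model over all genes (version 3.58.1, R version 4.3.3; moderated two-sided test). P-values were adjusted by the Benjamini-Hochberg method, with 0.05 as the threshold. The code was tested on simulated data with normal noise and known changes. It recovered 46.3% of changes of 0.5 log2, 98.5% of changes of 1 and 100% of changes of 2. A change near 0.5 could therefore be missed. The replicate numbers were not taken to pair the arrays. The members and lists were chosen with earlier results of these data known, and the motifs after the values were seen. Every array value is given for Bach2, the CD3 chains, Cd247, Zap70, Lat, Lcp2, members past the test, the 12 members with the smallest p and the largest difference in each role; for the other pathway genes, for Cd4, Cd28, Fyn, those past the test and the 6 with the smallest p. Cd5 is given in addition, chosen after its values were seen, and Lck, which the rule names, was not analysed here. Promoter sequences came from RefSeq (GRCm38.p6). Python 3.11.15 and matplotlib 3.10.9 were used for the motif search and the figures.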

Additional observations from a re-analysis of the deposited data

How the results depend on the processing

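The counts past the test over all genes, members and pathway genes were recomputed under 15 alternatives. So were the count of members at an unadjusted p under 0.05, the median differences, and the genes given by array except Cd5. The order of the wildtype arrays was recomputed only after a second quantile normalization. The marker lists, the separation of groups, the counts of intervals and the motif counts were not recomputed. With all probe sets in the fit 0 members were higher, 0 pathway genes were lower, and over all features 29 were higher and 8 lower. That fit changed both the number of features adjusted for and the variance prior: the unadjusted p of Trat1 was 6.36e-05 in it and 6.93e-06 over named genes (limma, fitted across all features), at the same difference. The count of members that rose was 2 with a prior that followed expression level, with array weights and without dim genes, Themis being the second; that prior called 78 genes lower over all genes. When 1 array at a time was left out, there were 1 to 2 members higher, 3 to 6 members at an unadjusted p under 0.05, 1 to 2 pathway genes lower, and over all genes 29 to 82 higher and 18 to 66 lower; the fewest of both came without wildtype replicate 3, and the fewest members at an unadjusted p under 0.05 without knockout replicate 2. The difference of Lcp2 ran from -0.041 to 0.057 and that of Cd4 from -0.040 to 0.011 in those analyses; Fyn ran from -0.070 to 0.104 and was -0.013 after a second quantile normalization, and the causes were not tested. The members' median stayed between -0.02 and 0.06, and 0 members were lower by limma under any alternative.

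Same-numbered arrays deviated from their group means with correlations of 0.21, 0.11 and -0.07 for replicates 1 to 3. Differently numbered arrays gave -0.26 to 0.17, so the numbers were not taken as pairs. With 3 arrays per genotype, these values cannot exclude a pairing. With the replicate number as a block, 1 member was higher, 0 lower and 6 at an unadjusted p under 0.05, 79 genes were higher and 55 lower over all genes, 2 pathway genes were lower, and the adjusted p of Trat1 was 0.0109.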
